A study of Rattus norvegicus with 3 samples.

Results

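The 10 genes described here, of glutathione and thioredoxin metabolism and of the response driven by the transcription factor NRF2, were followed through the cells of diabetic rat wounds. They were taken by symbol, and all 10 were found among the 32883 features of the deposited matrices: Nfe2l2, which encodes NRF2; Slc7a11, Gclc, Gclm and Gsr of glutathione metabolism; Txn1, Txnrd1 and Prdx1 of the thioredoxin system; the quinone reductase Nqo1; and the mitochondrial superoxide dismutase Sod2.

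NRF2 is held low by KEAP1, which passes it to the proteasome until oxidants or electrophiles modify KEAP1. Stabilised NRF2 pairs with small MAF proteins on antioxidant response elements and raises enzymes that make glutathione, reduce thioredoxin and detoxify quinones. Sod2 also answers to NF-kB, and Slc7a11 also to ATF4. In wounds, neutrophils and macrophages release superoxide and other oxidants during killing and clearance.

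The samples were wound skin of male wild-type Sprague-Dawley rats, in which streptozotocin, a compound that destroys insulin-producing cells, had induced diabetes at 65 mg/kg and 7 to 9 weeks of age, with blood glucose over 16.7 mM. The series design gives the age of the diabetic rats as 8 to 10 weeks. A full-thickness wound of 15 mm stayed untreated, received a hyaluronic acid hydrogel, or received such a hydrogel that also releases carbon monoxide (CO hydrogel), and the tissue was taken on day 7 and digested with a kit made for epidermis. Each group is 1 single-cell 3′ RNA library, so no difference between groups could be tested, and the number of animals behind a library is not given in the labels. All intervals below cover counting error alone.

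The untreated, hydrogel and CO hydrogel libraries held 12883, 15442 and 15376 barcodes, against about 8000 cells expected per sample, and 78233883, 109148721 and 109718517 UMIs (unique molecular identifiers, each standing for 1 captured RNA molecule). Of these barcodes 10820, 12700 and 13143 were kept as cells, with a median of 2640, 5620 and 5832 UMIs. Between 282 and 447 kept barcodes were shared by each pair of libraries. With every shared barcode left out, all 20 ratios past 2-fold given below had the same sign and 19 were still past 2-fold. Clusters were named by marker genes, and the 8 named classes with at least 50 cells in every library are called by the markers they carry, such as "fibroblast-like". All 8 fibroblast, 9 macrophage and 9 neutrophil markers had UMIs in their own class in every library. The makeup of the tissue differed between the libraries: neutrophil-like cells were 52.8%, 19.1% and 3.48% of kept cells, macrophage- or monocyte-like cells (macrophage-like below) 20.7%, 35.6% and 24.6%, and fibroblast-like cells 11.8%, 13.4% and 37.8%, in the order untreated, hydrogel, CO hydrogel. This order is used throughout. A further 19, 396 and 2 cells, of a cluster nearest to neutrophils by its markers, stayed unnamed for their low depth and are not in the neutrophil-like class. A level is given in CPM, the UMIs of a gene per 1000000 UMIs of the class, which compares a gene between classes and libraries but not one gene with another.

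To show where NRF2 could in principle bind near these genes, the core letters of the antioxidant response element, TGACNNNGC, were sought on both strands (GCNNNGTCA on the other) in the promoter table of RefSeq, which gives 250 bases before and 50 after each start on build GRCr8. The counts themselves were made on another build, rn6. Of the 10 genes, 9 had an entry, and Gsr is named only. The letters stood in the promoters of 5 genes, while 12.1% of all 33469 promoters in the table held them. The 4 matches upstream of a start are shown with their flanks because they show how the same core sits in genes described below, with the matched letters in capitals and the sequence on the gene's own strand. They lay 172 bases before the start of Gclm (chr2:213031943-213031991, plus strand), 78 before the second listed start of Txnrd1 (chr7:22755954-22756002, minus strand), 135 before that of Prdx1 (chr5:135383751-135383799, plus strand) and 35 before that of Sod2 (chr1:50050175-50050223, minus strand).
Gclm: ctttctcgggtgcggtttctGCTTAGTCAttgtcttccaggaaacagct
Txnrd1: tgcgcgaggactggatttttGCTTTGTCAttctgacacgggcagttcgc
Prdx1: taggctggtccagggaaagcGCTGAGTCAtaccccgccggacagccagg
Sod2: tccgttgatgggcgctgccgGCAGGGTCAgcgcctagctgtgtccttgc
In Nfe2l2 the letters TGACGCCGC began 38 bases after the start. The windows of Slc7a11, Gclc, Txn1, Nqo1 and the first listed start of Txnrd1 did not hold the letters. Sequence outside the windows was not searched, so an element farther from a start would be missed. A match is a description of the sequence and not a measured site.

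**Figure D1:**
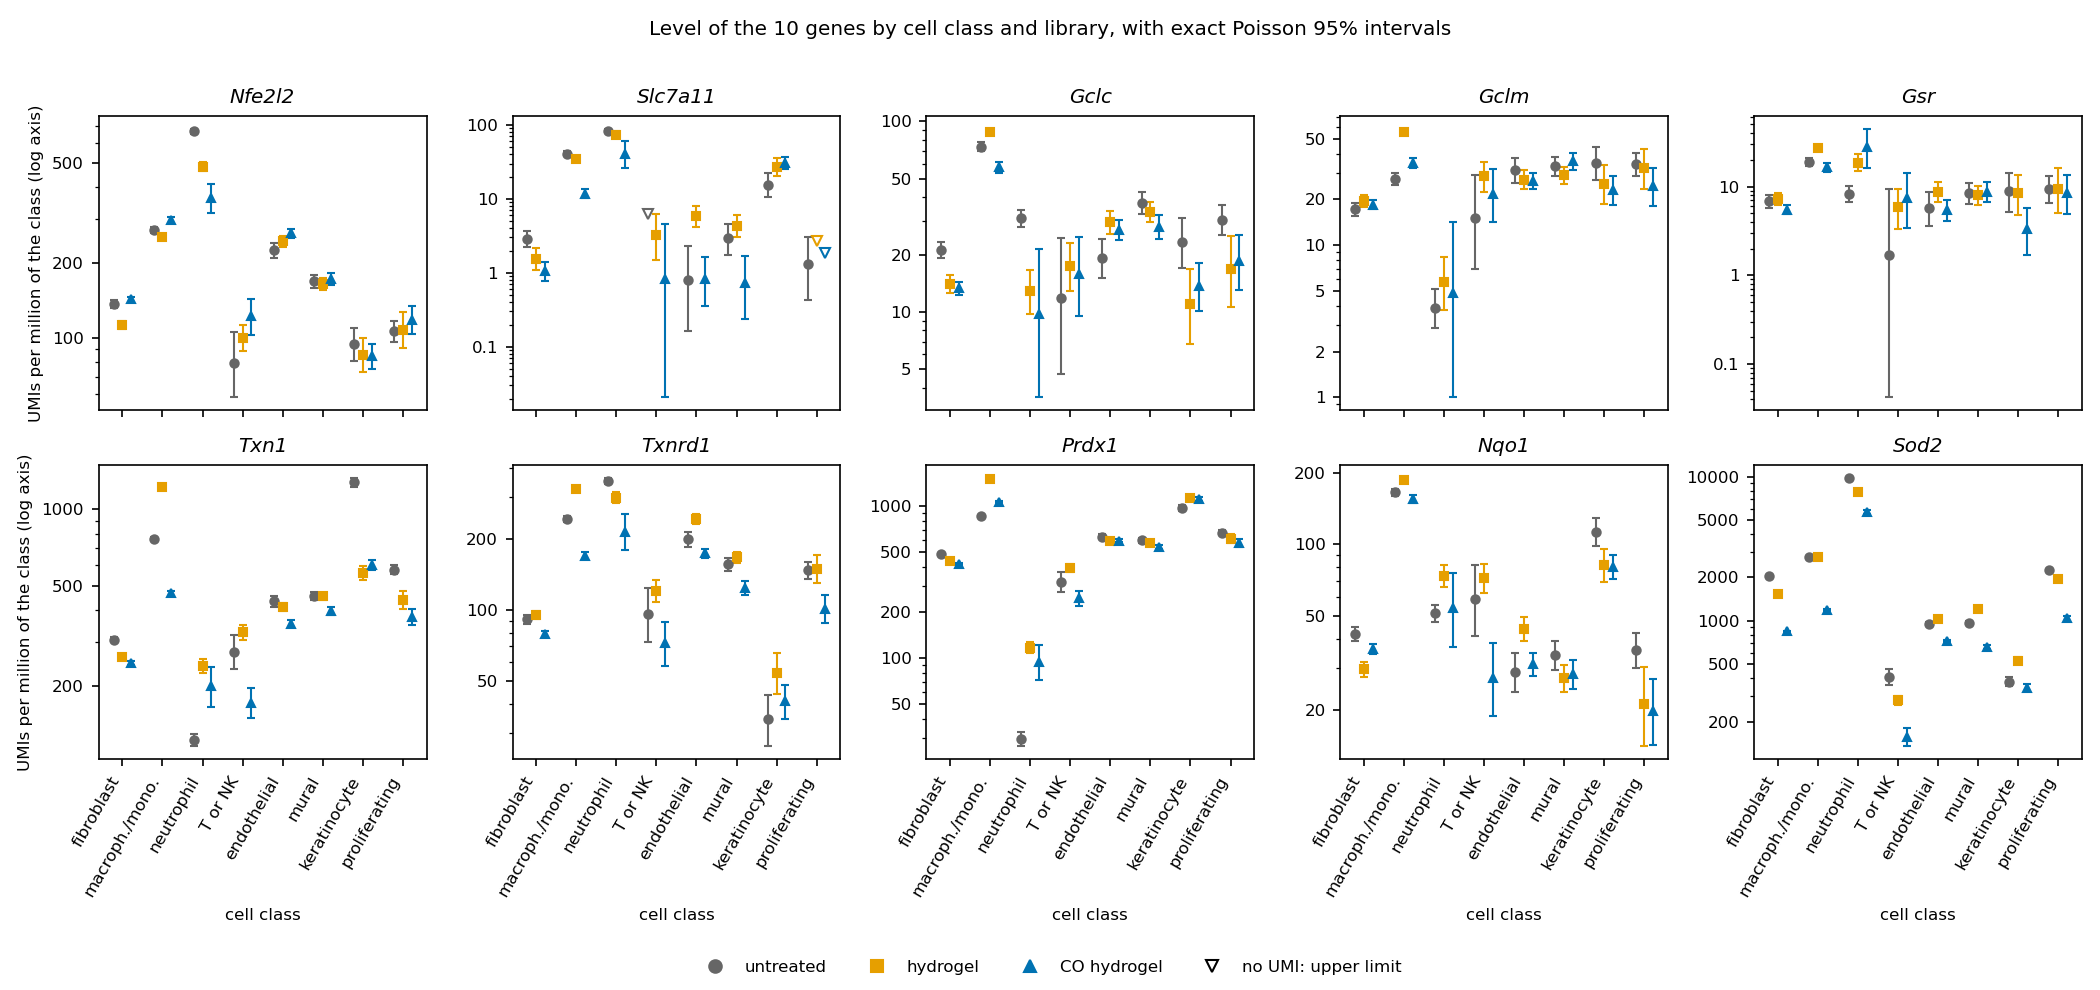
Levels of the 10 genes in 8 marker-named cell classes (x axis) of the untreated, hydrogel and CO hydrogel libraries, in UMIs per 1000000 UMIs of the class on a log axis, with exact Poisson 95% intervals (open triangles: no UMI, upper bound alone). Nfe2l2 and Sod2 were highest in neutrophil-like cells of every library, where Prdx1 was lowest.

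The regulator Nfe2l2 had its highest level in neutrophil-like cells of every library, at 668, 483 and 362 CPM. Macrophage-like cells came second with 270, 253 and 297 CPM and endothelial-like cells after them with 224, 243 and 262 CPM, overlapping the macrophage-like level in the hydrogel library. In neutrophil-like cells the 3 intervals did not overlap, with the untreated library highest, and the log2 ratio of the CO hydrogel to the untreated library was -0.88 (-1.08 to -0.69). Fibroblast-like cells were at 137, 113 and 143 CPM and keratinocyte-like cells at 94.5, 85.5 and 84.7 CPM. No Nfe2l2 ratio between libraries passed 2-fold in any of the 8 classes. With TMM factors in place of total UMIs, which shift every neutrophil-like ratio to the untreated library by -0.82 (hydrogel) and -1.005 (CO hydrogel), the Nfe2l2 ratios became -1.28 and -1.89. With a stricter cell filter macrophage-like cells ranked first in the CO hydrogel library.

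Among the glutathione genes, Slc7a11 differed most. It encodes the cystine transporter xCT, which supplies the cysteine for glutathione. Its level in macrophage-like cells was 40.9 CPM untreated, 34.1 with the hydrogel and 11.7 with the CO hydrogel, from 728, 1271 and 199 UMIs. The CO hydrogel library lay below both others with no overlap of intervals. The log2 ratio was -1.55 (-1.77 to -1.33) to the hydrogel and -1.81 (-2.04 to -1.58) to the untreated library, comparisons that share the CO hydrogel library. With the clusters of the class given common weights the first became -0.54, inside 2-fold. With the pathway genes kept for clustering the second became -0.87, also inside 2-fold. When each macrophage-like cell was thinned to 1000 UMIs, 3.20% (2.50 to 4.04), 2.63% (2.18 to 3.14) and 0.966% (0.653 to 1.38) of cells had a Slc7a11 UMI, with 83, 31 and 129 shallower cells left out. In fibroblast-like cells, where the level was 2.87, 1.54 and 1.05 CPM from 63, 36 and 49 UMIs, these shares were 0.164%, 0.179% and 0.0618%. Each of these fibroblast-like shares rests on a few cells, so no order of the libraries is read from them. Without thinning the shares were 11.8%, 10.1% and 2.78% of macrophage-like cells and 3.45%, 1.76% and 0.624% of fibroblast-like cells, at median depths of 7244, 7234 and 4731 UMIs and of 16468, 13618 and 9215 UMIs.

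Slc7a11 was highest in neutrophil-like cells of each library, at 82.2, 73.4 and 40.7 CPM, the last from 25 UMIs and overlapping the keratinocyte-like level. Its log2 ratio in neutrophil-like cells was -1.01 (-1.65 to -0.44) for CO hydrogel against untreated, past 2-fold in 4 of 10 alternatives. Keratinocyte-like cells went the other way, with 15.6, 27.3 and 30.4 CPM and a ratio of 0.97 (0.37 to 1.60) for the same pair. Neutrophil markers, which include S100a8 and S100a9 that wound keratinocytes also make, were at 4422, 24717 and 14437 CPM there and would bring 5.72, 24.8 and 6.70 CPM of Slc7a11. The same reckoning would bring 676, 2656 and 937 CPM of Sod2, more than the 378, 531 and 343 CPM measured. In fibroblast-like cells the ratio of -1.46 (-2.03 to -0.90) rested on 49 and 63 UMIs, and the gene was over 5 times higher in neutrophil-like cells. Neutrophil markers found in fibroblast-like cells would bring 0.751 of the 2.87 CPM of Slc7a11 in the untreated library, and its part in that ratio was not tested. T- or NK-, endothelial-, mural-like and proliferating cells were at 5.88 CPM or below in every library, the untreated T- or NK-like and both hydrogel proliferating classes without a UMI. In the first of these, no UMI allows a level of up to 6.21 CPM.

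Gclc and Gclm encode the catalytic and modifier subunits of glutamate-cysteine ligase, the first and limiting enzyme of glutathione synthesis. Gclc was highest in macrophage-like cells of each library, at 73.5, 87.9 and 57.2 CPM, above the mural-like cells that came second. In neutrophil-like cells it was 31.0, 12.8 and 9.78 CPM, the last from 6 UMIs. There the untreated library lay above both hydrogel libraries, with log2 ratios of -1.27 (-1.70 to -0.87) for the hydrogel and -1.66 (-3.12 to -0.53) for the CO hydrogel. With common cluster weights the first became -0.24, inside 2-fold, and in the 1 cluster that every library held in number Gclc was 6.56, 10.2 and 10.2 CPM, with overlapping intervals. Gclm in macrophage-like cells was 27.1, 55.5 and 34.8 CPM, and the hydrogel library stood above both others. Its ratio to the untreated library was 1.03 (0.89 to 1.18), just past 2-fold, and 6 of 10 alternative treatments of the data kept it past 2-fold. Neutrophil-like cells had the lowest Gclm level of every library, at 3.88, 5.75 and 4.89 CPM, with 46, 26 and 3 UMIs.

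Gsr, glutathione reductase, which returns oxidised glutathione to its reduced form, was read at low counts. Macrophage-like cells were at 18.9, 26.9 and 16.5 CPM, with the hydrogel library highest. In neutrophil-like cells Gsr was 8.27, 18.6 and 27.7 CPM from 98, 84 and 17 UMIs. Both hydrogel libraries were above the untreated one, by a log2 ratio of 1.17 (0.73 to 1.60) and 1.74 (0.91 to 2.50), and they overlapped each other. The first of these ratios was past 2-fold in 6 of 10 alternatives and reversed to -0.16 with common cluster weights. With TMM factors the ratios were 0.35 and 0.74. In the other classes Gsr was between 1.68 and 9.48 CPM.

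Txn1, cytosolic thioredoxin, which reduces protein disulfides, was 764 CPM untreated, 1222 with the hydrogel and 465 with the CO hydrogel in macrophage-like cells. The 3 intervals were apart, and the log2 ratio of the CO hydrogel to the hydrogel was -1.39 (-1.43 to -1.36). The ratio to the untreated library, -0.71, became 0.41 when each library was clustered by itself. At 1000 UMIs per cell 39.5%, 51.3% and 28.8% of these cells had a Txn1 UMI, and 85.4%, 89.2% and 68.0% without thinning. Keratinocyte-like cells held the highest level of the untreated library, at 1276 CPM, and 561 and 602 CPM in the hydrogel libraries. Their ratios to the untreated library were -1.19 (-1.29 to -1.08) and -1.08 (-1.17 to -0.999), from 104, 106 and 269 cells. Neutrophil-like cells were at 123, 241 and 200 CPM, and the ratios to the untreated library were 0.97 for the hydrogel and 0.70 for the CO hydrogel, inside 2-fold and near the medians of 0.70 and 0.72 over all features. With TMM factors they became 0.15 and -0.30, so that the order of the libraries in Txn1 was not kept.

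Txnrd1 encodes the reductase that recharges thioredoxin. In macrophage-like cells it was 243, 327 and 170.0 CPM, the CO hydrogel library lowest, with a ratio to the hydrogel of -0.94 (-1.001 to -0.88). Neutrophil-like cells were at 352, 299 and 215 CPM and keratinocyte-like cells, lowest in every library, at 34.3, 54.0 and 40.8 CPM. The CO hydrogel to hydrogel ratio of Txnrd1 was below 0 in all 8 classes, from -0.94 to -0.27, and within 2-fold in each.

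Prdx1, a peroxiredoxin that removes hydrogen peroxide at the expense of thioredoxin, was 859, 1523 and 1063 CPM in macrophage-like cells, again highest with the hydrogel. Keratinocyte-like cells were at 981, 1139 and 1119 CPM. In neutrophil-like cells it was the lowest of any class, at 29.5, 117 and 94.5 CPM. The untreated library lay below both others there, with log2 ratios of 1.99 (1.79 to 2.19) for the hydrogel and 1.68 (1.25 to 2.08) for the CO hydrogel. Macrophage C1q markers were at 92.6, 168 and 308 CPM in neutrophil-like cells and would bring 12.8, 74.8 and 25.8 CPM of Prdx1 with them. This is the larger part of the Prdx1 level with the hydrogel and the smaller part in the other libraries, and its share in the ratios was not tested. For Gsr the same markers would bring 0.281, 1.32 and 0.400 CPM.

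Nqo1, which reduces quinones, was highest in macrophage-like cells of each library, at 165, 185 and 154 CPM, followed by keratinocyte-like cells at 113, 81.3 and 80.0 CPM. In T- or NK-like cells it was 59.0, 71.96 and 27.4 CPM from 35, 198 and 33 UMIs. The CO hydrogel library was lowest there, with a ratio to the hydrogel of -1.39 (-1.97 to -0.86), and all 10 alternatives kept this past 2-fold. Macrophage C1q markers in the T- or NK-like cells would bring 0.937, 8.07 and 5.45 CPM of Nqo1.

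Sod2, which turns mitochondrial superoxide into hydrogen peroxide, was highest in neutrophil-like cells, at 9725, 7869 and 5695 CPM, and second in macrophage-like cells, at 2773, 2762 and 1193 CPM. Untreated and hydrogel macrophage-like cells differed by a log2 ratio of -0.01, and the CO hydrogel library was below both, at -1.21 (-1.23 to -1.19) to the hydrogel and -1.22 (-1.24 to -1.19) to the untreated library, the second past 2-fold in 6 of 10 alternatives and -0.69 with the stricter filter. Fibroblast-like cells were at 2051, 1539 and 845 CPM, with 3 separate intervals and a ratio of -1.28 (-1.30 to -1.26) for CO hydrogel against untreated. For CO hydrogel against hydrogel Sod2 was below 0 in all 8 classes, from -1.21 in macrophage-like to -0.47 in neutrophil-like cells. Proliferating cells were at 2236, 1937 and 1043 CPM, with a ratio of CO hydrogel to untreated of -1.10 (-1.17 to -1.03) that became 0.22 when each library was clustered by itself.

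The libraries differ in how many neutrophil-like cells they hold, the class with the most Sod2. Neutrophil markers, all 9 of which had UMIs in the untreated and hydrogel classes and 8 of 9 in the CO hydrogel ones, summed to 581, 329 and 143 CPM in fibroblast-like cells and to 2524, 957 and 585 CPM in macrophage-like cells. At the ratio of Sod2 to these markers in neutrophil-like cells they would bring 88.8, 35.4 and 9.30 CPM of Sod2 into the first class and 386, 103 and 38.0 CPM into the second, the smaller part of either level in each library. In T- or NK-like cells, where Sod2 was 408, 281 and 158 CPM, the amount would be 285, 44.1 and 27.8 CPM. That is most of the untreated level, and its part in the ratio of CO hydrogel to untreated, -1.37 (-1.65 to -1.09), was not tested.

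**Figure D2:**
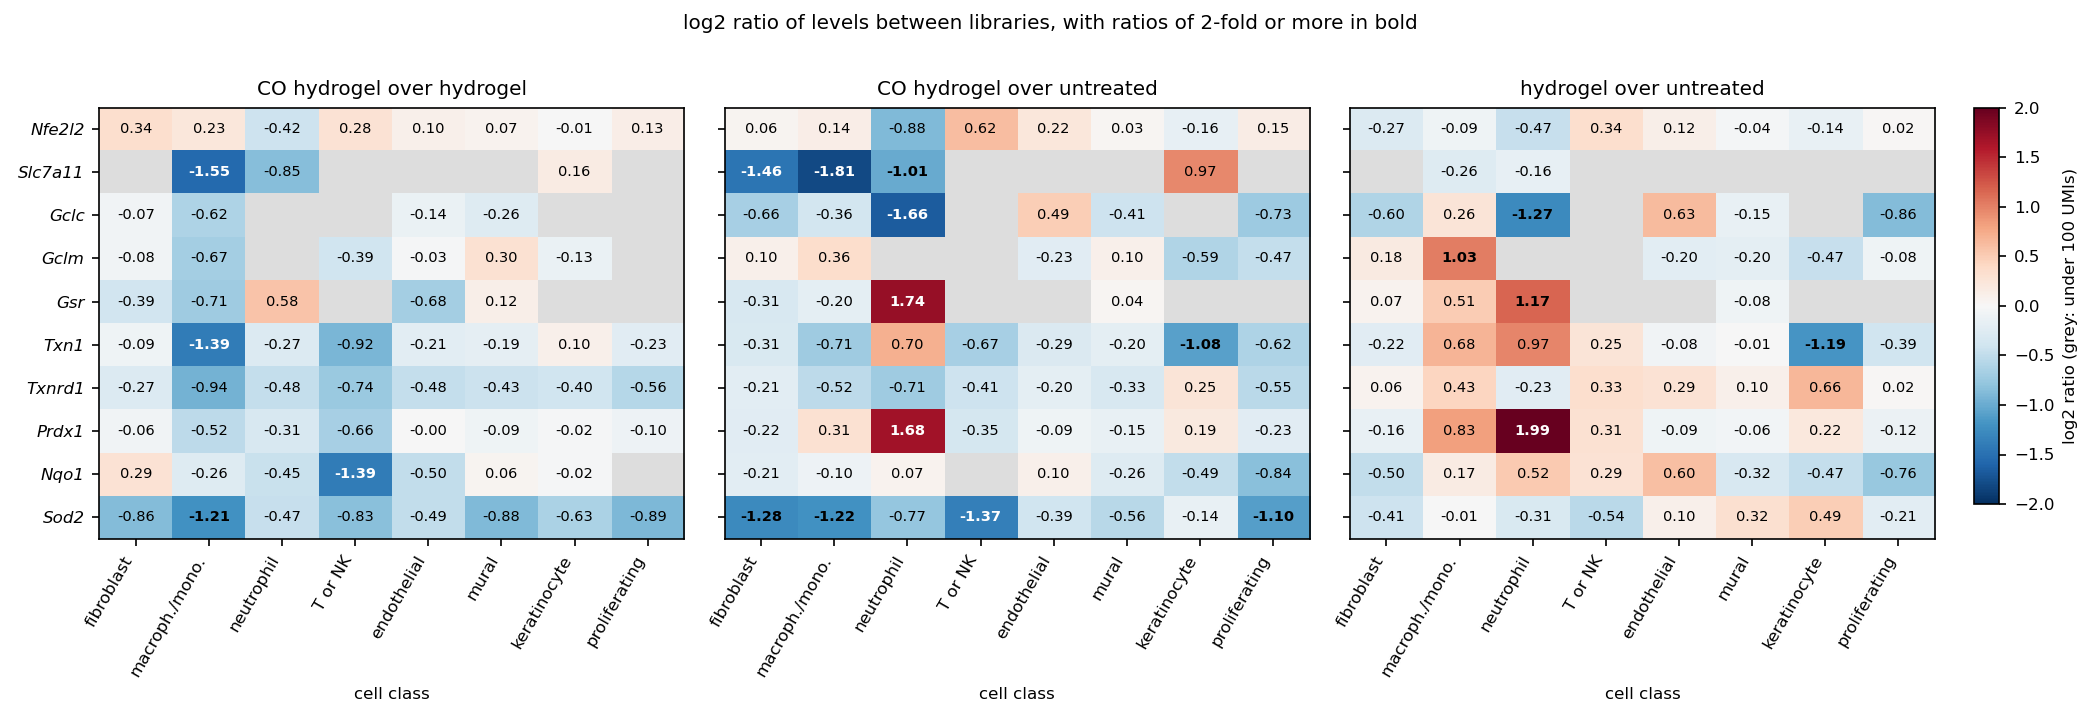
Log2 ratio of the level of each gene (rows) between libraries in each class (columns), with ratios of 2-fold or more in bold and pairs with under 100 UMIs in grey. In macrophage-like cells Slc7a11, Txn1 and Sod2 had CO hydrogel levels more than 2-fold under the hydrogel ones.

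Counted over the classes, 65 ratios of CO hydrogel to hydrogel had at least 100 UMIs, and none was 2-fold higher and 4 were 2-fold lower. Of all features read in the same way 1.98% were higher and 1.72% lower. Above 0 were 13 of the 65 and below it 52, with a median of -0.27. For CO hydrogel against untreated 2 of 67 were higher (all features 6.87%) and 9 lower (2.18%), with a median of -0.26. For hydrogel against untreated 3 of 66 were higher (6.26%) and 2 lower (1.98%), with a median of -0.03. The counts of lower ratios with the CO hydrogel were above the share of all features, and the other counts were near or below it. A gene can enter these counts in several classes, so the ratios are not independent. Against the untreated library Sod2 was lower in fibroblast-, macrophage-, T- or NK-like and proliferating cells. Slc7a11 was lower in fibroblast-, macrophage- and neutrophil-like cells, and Gclc and Txn1 gave the rest. The counts also moved with the processing, as given below.

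Macrophage-like cells gave 3 of the 4 lower ratios of CO hydrogel to hydrogel, Slc7a11, Txn1 and Sod2, and 9 of the 10 genes were below 0 there, Nfe2l2 being the exception at 0.23. Their median was -0.69, against -0.02 over all features, of which 4.08% were 2-fold higher and 2.40% lower. Against the untreated library none of the 10 was higher and 2 were lower (all features 5.87% and 2.72%), with a median of -0.28. For hydrogel against untreated 1 was higher and none lower (4.44% and 2.23%), and 7 of 10 were above 0, with a median of 0.34 against 0.16 over all features.

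In neutrophil-like cells no ratio of CO hydrogel to hydrogel passed 2-fold among 8 read (all features 1.53% higher and 2.22% lower), and 7 were below 0. Against the untreated library 2 of 9 were higher and 2 lower with the CO hydrogel (36.1% and 4.79%), and 2 of 9 were higher and 1 lower with the hydrogel (32.7% and 2.48%). All features had medians of 0.72 and 0.70 against untreated neutrophil-like cells, so the count of higher ratios, Prdx1 and Gsr in both comparisons, is not above the background. With TMM factors the ratios of Prdx1 to untreated were 1.17 for the hydrogel and 0.67 for the CO hydrogel, the latter inside 2-fold. In fibroblast-like cells no gene passed 2-fold for CO hydrogel against hydrogel (1.97% and 1.76%) or hydrogel against untreated (4.79% and 2.37%), and Slc7a11 and Sod2 were lower for CO hydrogel against untreated (6.14% and 2.79%).

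**Figure D3:**
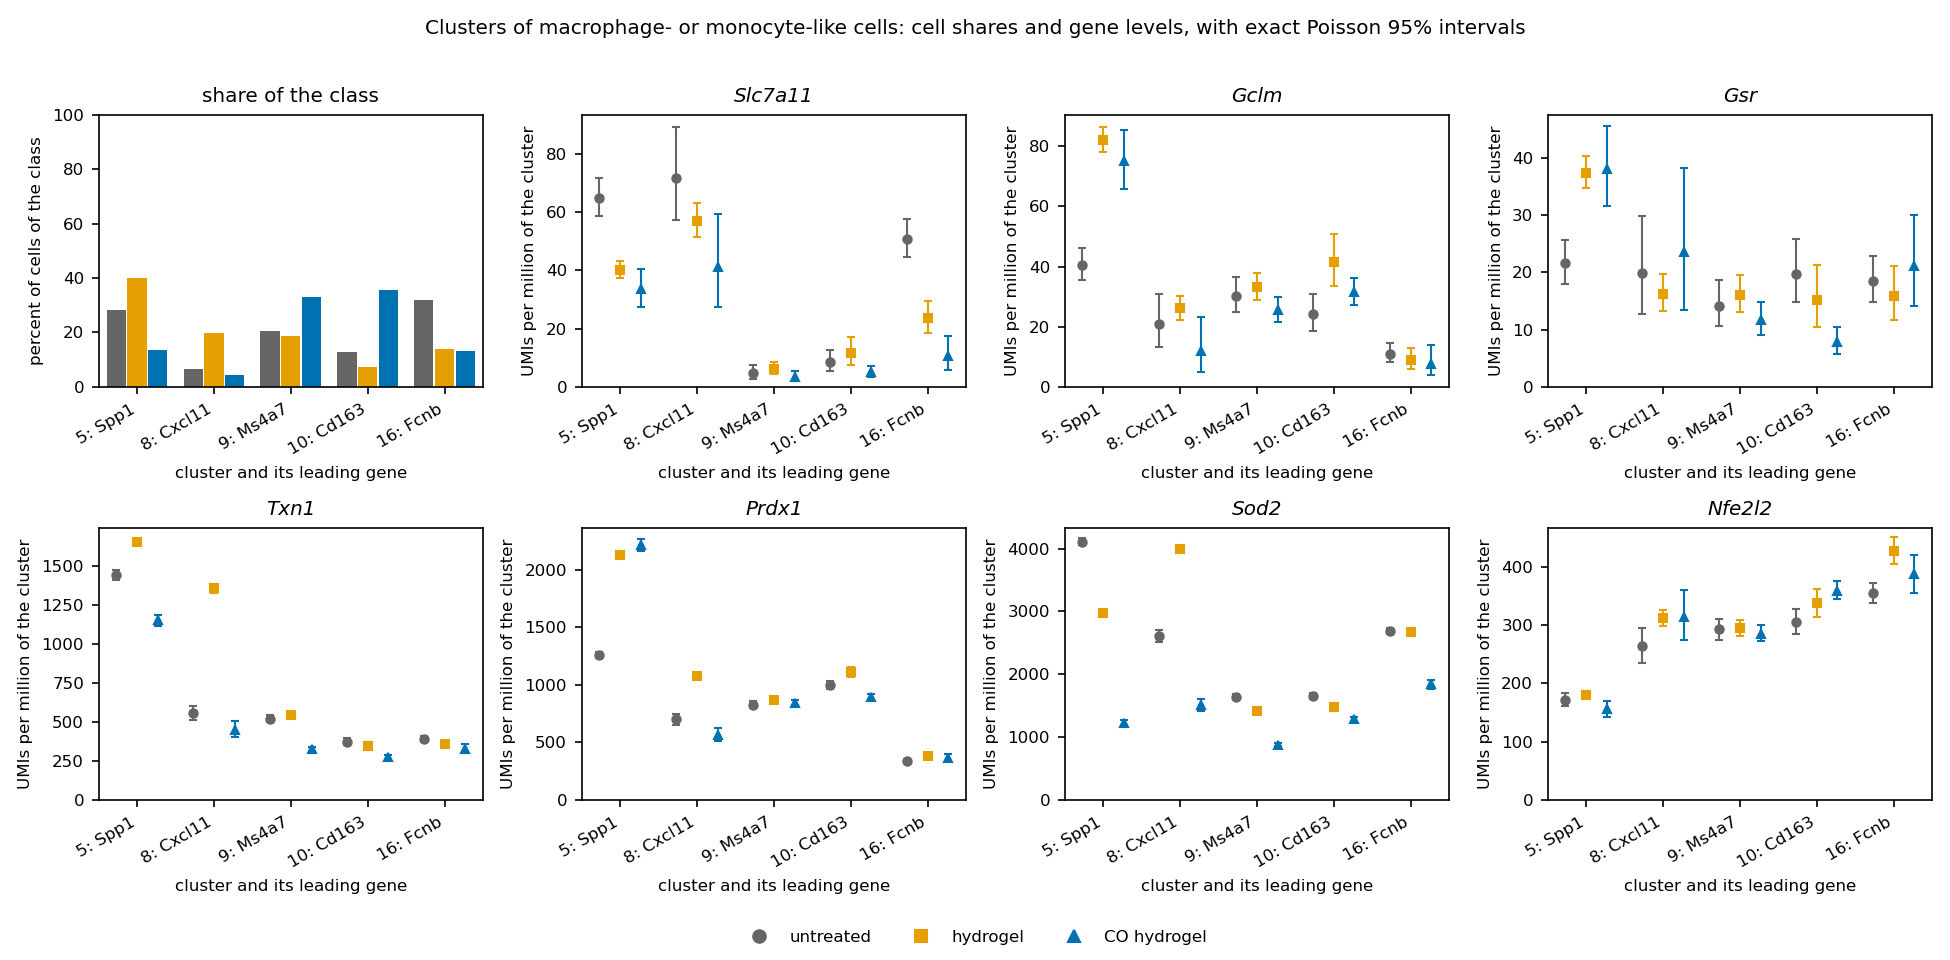
Share of macrophage-like cells in each of 5 clusters (bars, percent, named by number and a leading gene) and the level of 7 genes in each cluster (points, UMIs per 1000000 of the cluster, exact Poisson 95% intervals). Txn1, Gclm and Prdx1 were highest in the cluster led by Spp1, which held 40.2% of the hydrogel and 13.5% of the CO hydrogel cells.

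The macrophage-like class was made of different clusters in each library. The cluster led by Spp1, Gpnmb and Hmox1 held 28.3%, 40.2% and 13.5% of the class. A cluster led by the interferon-induced Cxcl11 held 6.44%, 19.9% and 4.51%. The cluster led by Cd163 and Lyve1 held 12.9%, 7.41% and 35.7%, and that led by Ms4a7 and class II genes 20.4%, 18.6% and 33.2%. A cluster led by Fcnb held 31.9%, 13.9% and 13.1%.

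The 10 genes divided among these clusters. Txn1 was 1438, 1653 and 1149 CPM in the Spp1 cluster and 373, 345 and 275 CPM in the Cd163 cluster. Prdx1 was 1256, 2127 and 2211 CPM in the Spp1 cluster and 339, 384 and 368 CPM in the Fcnb cluster. Gclm was 40.6, 82.1 and 75.1 CPM, and Gsr 21.5, 37.4 and 38.0 CPM, in the Spp1 cluster, so both hydrogel libraries lay above the untreated one there with overlapping intervals between them. Nfe2l2 ran the other way, lowest in the Spp1 cluster at 172, 181 and 156 CPM and highest in the Fcnb cluster at 355, 428 and 387 CPM. Slc7a11 was highest in the Cxcl11 cluster (71.9, 57.0 and 41.2 CPM) and the Spp1 cluster (65.0, 40.2 and 33.6 CPM), followed by the Fcnb cluster (50.8, 23.5 and 10.5 CPM). It was at 11.6 CPM or below in the Cd163 and Ms4a7 clusters of each library.

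Sod2 was lower with the CO hydrogel in all 5 clusters. It was 4110, 2977 and 1231 CPM in the Spp1 cluster, 2609, 3987 and 1510 CPM in the Cxcl11 cluster and 1644, 1410 and 878 CPM in the Ms4a7 cluster. The gap was narrowest in the Cd163 cluster, with 1653, 1473 and 1287 CPM.

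With the clusters given common weights, their shares over the 3 libraries, no ratio of CO hydrogel to hydrogel among the 3 past 2-fold in macrophage-like cells stayed past it. Sod2 was then -0.86, Txn1 -0.63 and Slc7a11 -0.54, the other 9 alternatives leaving all 3 past 2-fold. Against the untreated library Slc7a11 was -1.13 and Sod2 -1.01 with these weights, and the Gclm ratio of hydrogel to untreated became 0.65. Gclm, Gsr and Prdx1 came to -0.27, -0.03 and -0.10 for CO hydrogel against hydrogel, from -0.67, -0.71 and -0.52 in the whole class.

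**Figure D4:**
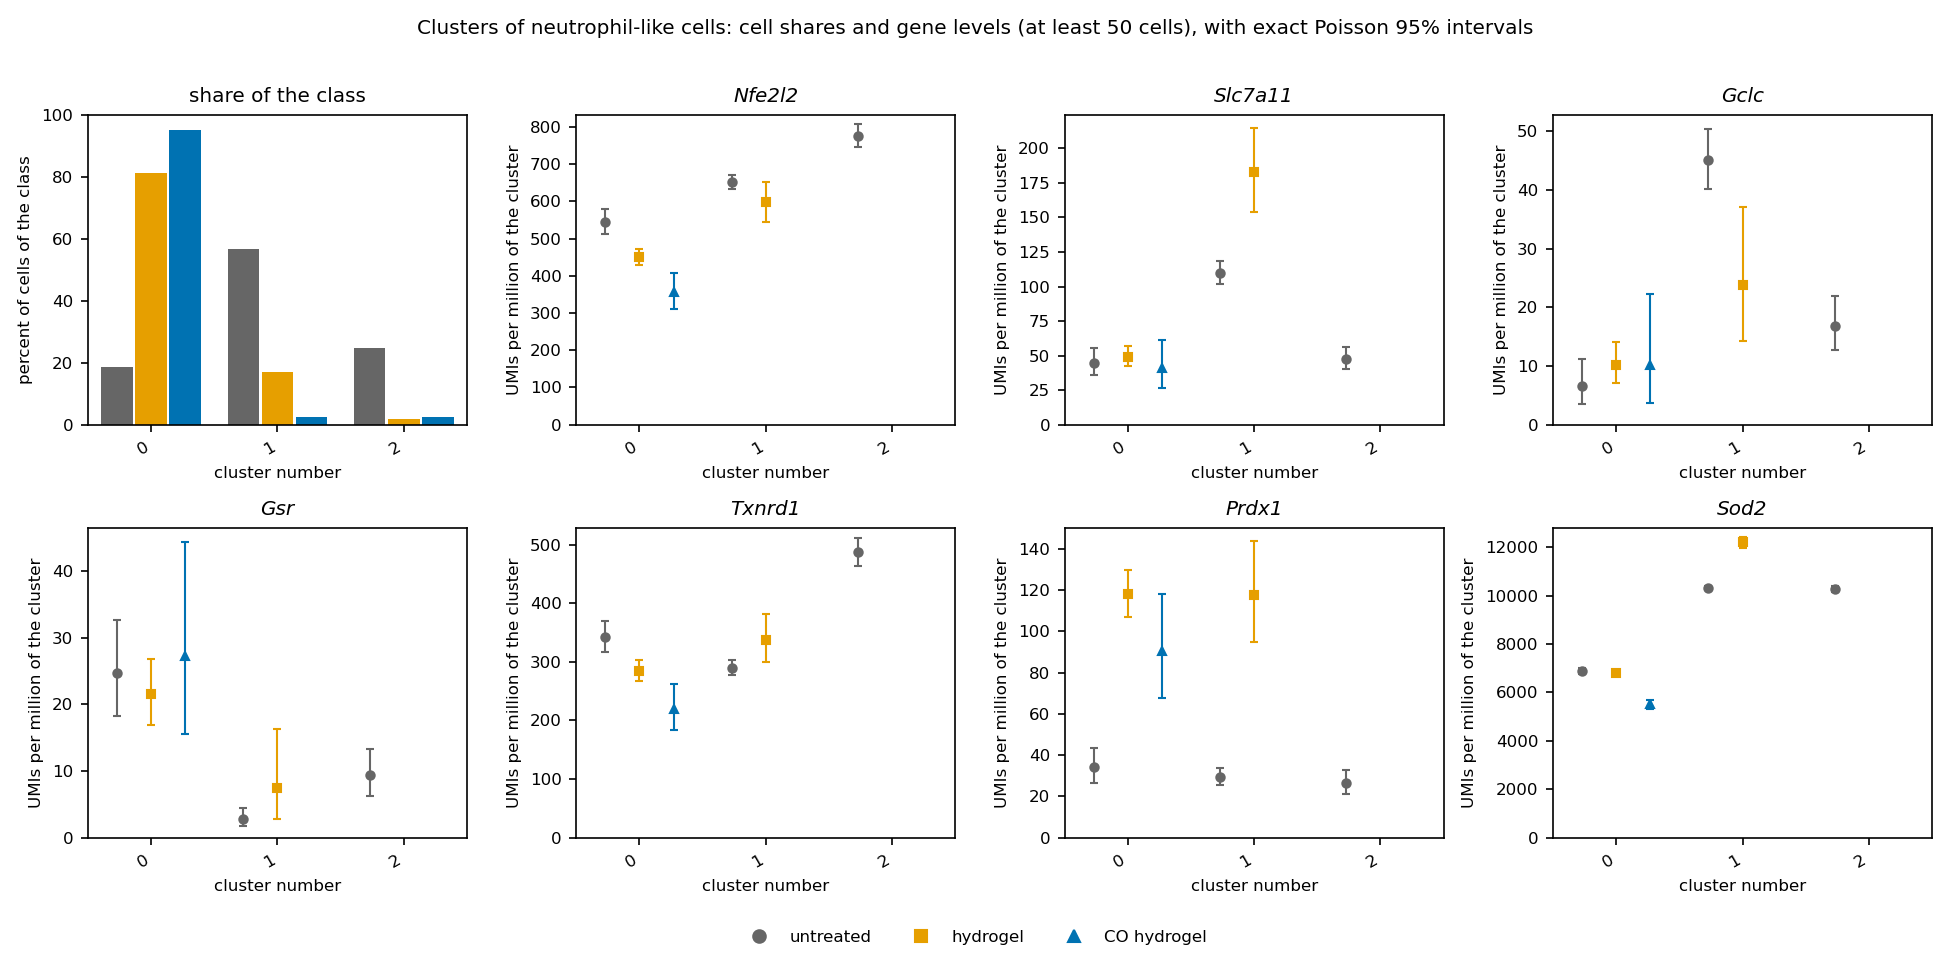
Share of neutrophil-like cells in each of 3 clusters (bars, percent, by cluster number) and the level of 7 genes in each cluster with at least 50 cells (points, UMIs per 1000000 of the cluster, exact Poisson 95% intervals). Cluster 0 held 18.7% of untreated but 81.1% and 95.2% of hydrogel and CO hydrogel cells, and cluster 1 held 56.7% of untreated cells.

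The neutrophil-like class also had different clusters in each library. Cluster 0, with Pglyrp1 and Csf3r among its leading genes, held 18.7%, 81.1% and 95.2% of the class, cluster 1, led by Il23a, Ccl3 and Cxcl3, held 56.7%, 17.0% and 2.40%, and cluster 2, led by Retnlg and Camp, held 24.7%, 1.89% and 2.40%. Within cluster 0, which every library held, Slc7a11 was 44.9, 49.1 and 41.0 CPM and Gsr 24.7, 21.5 and 27.3 CPM, each with overlapping intervals. For the CO hydrogel the common cluster weights rest on 11 cells in each of the other clusters. Prdx1 in cluster 0 was 34.3, 118 and 90.5 CPM, with the untreated library apart from the others. Cluster 1 carried more Slc7a11 than cluster 0, at 110 CPM untreated and 183 CPM with the hydrogel, and more Sod2, at 10306 and 12193 CPM against 6894 and 6796 CPM. Nfe2l2 in cluster 0 was 545, 449 and 357 CPM, still separate in the 3 libraries, and Txnrd1 was 342, 285 and 220 CPM.

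Fibroblast-like cells lay in 4 clusters. Sod2 had the order untreated, hydrogel, CO hydrogel in each of the 3 with enough cells in all libraries: 2036, 1271 and 852 CPM in the cluster led by Cxcl13, 1777, 1310 and 720 CPM in that led by Gap43 and Dpp4, and 2762, 1852 and 979 CPM in that led by Tnn. With common cluster weights the ratio of CO hydrogel to untreated was -1.35, and all 10 alternatives kept it past 2-fold. Nqo1 and Nfe2l2 were lowest in the Tnn cluster, at 19.1, 16.3 and 9.49 CPM and at 82.7, 75.3 and 74.7 CPM, against 41.0, 41.1 and 42.5 CPM and 175, 140.3 and 164 CPM in the Cxcl13 cluster.

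**Figure D5:**
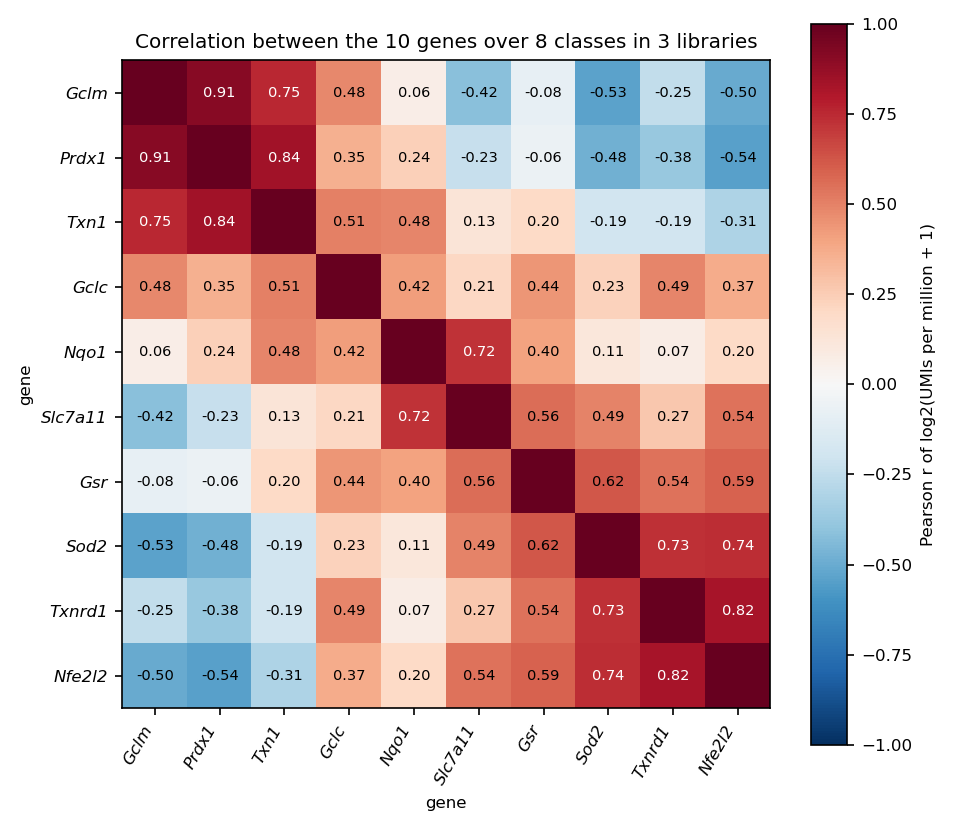
Pearson correlation of log2(UMIs per 1000000 + 1) between each pair of the 10 genes over 24 points, the 8 classes in 3 libraries. Gclm, Prdx1 and Txn1 formed one group of high values and Nfe2l2, Txnrd1 and Sod2 another.

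Over the 24 points of 8 classes in 3 libraries, which share libraries and classes and so are a description only, Gclm and Prdx1 followed each other most closely (Pearson r 0.91), with Txn1 beside them (0.84 to Prdx1 and 0.75 to Gclm). Nfe2l2, Txnrd1 and Sod2 made a second group, with r from 0.73 to 0.82. Between a gene of one group and a gene of the other r ran from -0.54 (Prdx1 and Nfe2l2) to -0.19 (Txn1 and Txnrd1). Slc7a11 was nearest Nqo1 (0.72). Among 9367 genes compared, those most like Nfe2l2 were Nfkbia (0.93), the inhibitor and target of NF-kB, Fcho2 and Wsb1. Those most like Sod2 were Gng10 (0.91), Nfkbiz (0.89), a nuclear partner of NF-kB, and Lta4h (0.87), the leukotriene A4 hydrolase. Prdx1 was nearest the copper chaperone Atox1 (0.96), Atp5if1 and the proteasome subunit Psmb6. Gclm was nearest Akr1a1 (0.94), Acadl, of fatty acid oxidation, and Etfb, of electron transfer. Slc7a11 was nearest Tpd52, Pstpip2 and Trem3 (each 0.91), Txnrd1 nearest Card19 (0.92), Gab2 and Nampt, and Nqo1 nearest Cib1 (0.90) and the proton pump subunits Atp6v1b2 and Atp6v0e1. Gclc was nearest Gdf15 (0.85), Dmxl2 and Jarid2, Gsr nearest Fnip2 (0.84), Arid3a and Aldh3b1, and Txn1 nearest Smg9 (0.88), Hprt1 and Prdx1.

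The 10 genes were set beside a wider list of 70 genes of the same pathways, 66 of them in the files. Common cluster weights were applied to the 10 genes alone. The part of class makeup in the values of the wider list was not tested. Gsta1 and Hmox1 were among the leading genes of the Spp1 cluster, which held 28.3%, 40.2% and 13.5% of macrophage-like cells. In macrophage-like cells 4 of 58 were 2-fold higher and 3 lower for CO hydrogel against hydrogel, with a median of -0.10, where 4.08% and 2.40% of all features were higher and lower. Those lower were the NADPH oxidase subunit Ncf1 (-1.34), Ggct (-1.22), of glutathione turnover, and the peroxiredoxin Prdx5 (-1.08). Those highest were the epoxide hydrolase Ephx1 (1.62) and the glutathione peroxidases Gpx3 (1.19) and Gpx8 (1.19). Ephx1 was 1.53 CPM with the hydrogel and 4.69 CPM with the CO hydrogel, and Gpx8 2.39 and 5.45 CPM. Fibroblast markers in macrophage-like cells were at 684 and 1808 CPM in these libraries, and the part of carried RNA in these ratios was not tested. Hmox1, which makes CO in cells, was 2254, 2172 and 2094 CPM. Against the untreated library 8 of 56 were higher with the CO hydrogel and 1 lower, with a median of 0.29, against 5.87% and 2.72% and a median of 0.15 over all features.

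For hydrogel against untreated, 9 of 55 of the wider list were 2-fold higher in macrophage-like cells and none lower, with a median of 0.37, against 4.44% and 2.23% and a median of 0.16 over all features. The glutathione transferases Gstp1 (183 CPM untreated and 859 CPM with the hydrogel, 2.23) and Gsta1 (78.6 and 284 CPM, 1.85) and the NRF2 target Osgin1 (1.46) led, while Glrx (-0.96), Txnip (-0.53), which binds thioredoxin, and Prdx5 (-0.49) were lowest. In neutrophil-like cells 13 of 41 were higher and 2 lower, with a median of 0.69. Of all features 32.7% were higher and 2.48% lower there, with a median of 0.70, so the higher count is at the background. Gsta1 (3.80), Ggct (3.34) and Blvrb (2.45) were highest there, and Prdx5 (-1.16) and Hmox1 (-1.14) lowest. Gsta1 was 1.86 CPM untreated and 25.9 CPM with the hydrogel in neutrophil-like cells, against 78.6 and 284 CPM in macrophage-like cells. The part of RNA carried from macrophages in this ratio was not tested. For CO hydrogel against hydrogel none of 34 was higher in neutrophil-like cells and 4 were lower (all features 1.53% and 2.22%). Lowest were Ggct (-2.65, -4.95 to -1.08), Osgin1 (-1.78, -3.68 to -0.38) and Hmox1 (-1.61, -1.91 to -1.31). Ggct and Osgin1 were at only 4.89 and 6.52 CPM in the CO hydrogel library, so their ratios rest on few UMIs.

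Fibroblast-like cells had 2 of 62 genes of the wider list higher and 5 lower for CO hydrogel against hydrogel (all features 1.97% and 1.76%). Aldh3a1 (1.82) and Gsta1 (1.34) were highest and Ncf1 (-2.01), Ggt1 (-1.59) and Cybb (-1.43), the first and last of them NADPH oxidase subunits of phagocytes, were lowest. Aldh3a1 was at only 4.97, 0.813 and 2.88 CPM, with the hydrogel library lowest. Ggt1 was at only 2.825 CPM with the hydrogel and 0.938 CPM with the CO hydrogel. In endothelial-like cells 2 of 53 genes of the wider list were higher for CO hydrogel against hydrogel and 2 lower. The higher ones were Ephx1 (1.45) and Gpx3 (1.02), and the lower ones Ncf1 (-2.05) and Cybb (-1.32). Of all 8367 features read there for this pair, 167 were higher and 61 lower. Ncf1 was 16.2 CPM with the hydrogel and 3.90 CPM with the CO hydrogel in endothelial-like cells and 10.2 and 2.54 CPM in fibroblast-like cells, against 486 and 192 CPM in macrophage-like cells, and the part of RNA carried from phagocytes in these ratios was not tested. Of 11 NF-kB targets none passed 2-fold in macrophage-like cells for CO hydrogel against hydrogel (all features 4.08% higher and 2.40% lower). Their median was -0.30, against -0.02 over all features. In neutrophil-like cells 1 of 9 was lower for this pair (all features 2.22%), with a median of -0.54 against 0.11 over all features. Of 12 ATF4 targets none of 8 read in macrophage-like cells passed 2-fold. Their median was 0.24, against -0.02 over all features. Dissociation stress genes were within 2-fold there, with a median of 0.15, and housekeeping genes too, at 0.02. For CO hydrogel against untreated no ATF4 or NF-kB target was 2-fold higher in macrophage-, neutrophil- or fibroblast-like cells. In that order 2 of 11, 3 of 11 and 2 of 10 NF-kB targets were lower (all features 2.72%, 4.79% and 2.79%). Their medians were -0.46, -0.85 and -0.325, against 0.15, 0.72 and 0.14. Of ATF4 targets 3 of 12 were lower in fibroblast-like cells and none of 8 in either other class. Their link to the 10 genes was not tested. In fibroblast-like cells 3 of 10 dissociation stress genes were 2-fold higher for hydrogel against untreated (all features 4.79%). Their median was 0.97, against 0.14 over all features, and their part in the ratios of the 10 genes was not tested. In neutrophil-like cells 3 of 8 housekeeping genes were 2-fold higher for CO hydrogel against untreated, with a median of 0.71, close to the 36.1% and 0.72 of all features.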

How the data were processed

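The authors deposited 1 matrix of UMI counts per library, made with Cell Ranger (6.0.1 per the file headers, 7.0.0 per the submitters' processing notes) on rn6. Barcodes under 500 UMIs or 300 genes, or over 20% mitochondrial UMIs, were dropped. Scrublet's own threshold called 0 untreated cells, so the barcodes with the highest doublet scores were removed at 0.8% per 1000 barcodes (1145, 1646 and 1782). Cells were clustered with scanpy 1.11.5 on 2000 variable genes, without the 10 genes and the wider list, at Leiden resolution 1. The 28 clusters were named by fixed markers and 6 stayed unnamed. Levels are summed UMIs per 1000000 with exact Poisson 95% intervals, and ratios, with exact conditional binomial intervals, were read from 100 UMIs over both libraries and called at 2-fold. TMM factors came from edgeR 4.0.16. Each group being 1 library, nothing was tested. PCR copies are merged by UMI, and intervals cover counting error only. The 10 genes and all lists were chosen with earlier results of these data known. Genes named are the 10, the 3 highest and 3 lowest ratios of the wider list in fibroblast-, macrophage-, neutrophil- and endothelial-like cells for CO hydrogel against hydrogel and hydrogel against untreated, and the 3 genes most correlated with each of the 10, not all of which are printed. Hmox1 in macrophage-like cells is given outside this rule, chosen after its values were seen. The ratio scripts were tested on simulated data. Alternatives varied filter, doublets, resolution, clustering, scaling, cell weights, count minimum and class makeup. Carried RNA and the leaving out of shared barcodes were added after seeing the data.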

Additional observations from a re-analysis of the deposited data

How the results depend on the processing

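Of 198 ratios read, 175 (mean of per-cell CPM) to 198 (no count minimum) had the same sign under each of 10 alternatives, and of the 20 past 2-fold between 13 (class makeup matched) and 20 (resolution 2) stayed past it. The count 2-fold higher for CO hydrogel against hydrogel went from 0 to 1 with makeup matched, and the count lower from 4 to 9 without doublet removal, 8 without a count minimum and 2 with makeup matched. For CO hydrogel against untreated the count higher went from 2 to 1 with the stricter filter and 0 with TMM factors. For hydrogel against untreated the count higher went from 3 to 7 without doublet removal, 5 with each library clustered by itself, 5 with pathway genes kept for clustering, 6 without a minimum, 1 with TMM factors and 1 with makeup matched, and the count lower from 2 to 1 with libraries clustered by themselves, 6 with TMM factors, 4 without a minimum and 1 with makeup matched. The ratio of Gsr in neutrophil-like cells for hydrogel against untreated reversed from 1.17 to -0.16 with makeup matched, and that of Sod2 in proliferating cells for CO hydrogel against untreated from -1.10 to 0.22 with libraries clustered by themselves. Apart from what each alternative changes by construction, the cause was not tested. No paired analysis was possible because each group is 1 library. Low UMI counts limit the reading of Slc7a11 outside macrophage-, neutrophil- and keratinocyte-like cells. They also limit Gclc, Gclm and Gsr in the 458 neutrophil-like cells of the CO hydrogel library.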

Other observations

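Unnamed clusters, which enter no class, held some of the highest levels of these genes. A cluster led by Ccl22, Cd207 and Ccl17, chemokines and a lectin known from dendritic and Langerhans cells, had 90, 121 and 252 cells (untreated, hydrogel, CO hydrogel). Its Slc7a11 level was 233 (204 to 265), 150.4 (128 to 175) and 85.2 (72.3 to 99.6) CPM, above that of neutrophil-like cells in every library, with 3 separate intervals and the untreated library highest. Nqo1 there was 264, 237 and 102 CPM.

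A cluster led by Slamf6 and Mmp12 consisted of 326 hydrogel cells, with 3 and 5 cells in the untreated and CO hydrogel libraries. It was nearest to macrophages or monocytes by its markers, but its marker score of 0.168 was under the minimum of 0.2. These cells are therefore in none of the macrophage-like levels and ratios above. Txn1 was at 2848 CPM, Prdx1 at 2927 CPM and Nqo1 at 396 CPM, each above the macrophage-like level of that library. A cluster led by the interferon-induced Rsad2 and Isg15 held 396 hydrogel cells, with 19 and 2 in the untreated and CO hydrogel libraries. It was nearest to neutrophils by its markers. It was left unnamed for a depth low for the library together with no neutrophil marker among its 10 leading genes. The matching cluster was named neutrophil with the stricter filter, without doublet removal, at resolution 2 and with pathway genes kept for clustering. It had Sod2 at 11213 CPM, Txn1 at 609 CPM and Slc7a11 at 77.4 CPM. The Slamf6 and Rsad2 clusters come almost wholly from 1 library, so library and cell type cannot be told apart.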
